A study of Mus musculus with 10 samples.

Results

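The TD subset of an untreated mouse acute promyelocytic leukaemia (APL) was compared with its SC subset across all genes on the arrays. The comparison was set by the sample titles: the 2 arrays of the untreated TD subset (UNTD) against the 2 arrays of the untreated SC subset (UNSC), 4 of the 10 arrays of the series. Of 45037 probe sets, 14581 genes entered the test. The leukaemia comes from PML-RARα transgenic mice and was carried by FVB N/J mice aged 8 to 10 weeks. Retroviral GFP marked the leukaemic cells of both groups. They were grown in syngeneic transplant recipients, taken from the marrow and sorted by flow cytometry. Neither group had received all-trans retinoic acid (ATRA). The other untreated subset (UNPD, 2 arrays) and the PD and TD subsets from ATRA-treated marrow (RAPD and RATD, 2 arrays each, 10 mg/kg for 5 days per the treatment protocol and 3 to 5 days per the source names) entered the fit of the spread. The labels do not spell out SC, PD or TD. Sources used here do not give the promoter that drives the transgene, the surface markers of the sort or the number of animals per array. The labels call the 2 arrays of a group biological replicates and do not say whether they came from different primary leukaemias. The p-values therefore measure the spread between replicate arrays, pooled over all 5 groups.

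APL is a myeloid leukaemia in which PML is fused to the retinoic acid receptor RARα, and the leukaemic cells accumulate at the promyelocyte stage. Promyelocytes fill their primary granules with myeloperoxidase and serine proteases. On the way to the neutrophil they stop dividing, turn off the primary granule genes, and then make secondary and tertiary granule proteins. The monocyte arises from the same progenitors under factors such as IRF8 and KLF4, depends on the receptor for CSF1, and expresses receptors and lysosomal enzymes for uptake and digestion of particles.

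Levels are the deposited MAS5 signals on a log2 scale, a difference is UNTD minus UNSC in log2 units ± SE, and adjusted p-values come from limma with Benjamini-Hochberg over all 14581 genes. A gene was called, and is said to have risen or fallen, at an adjusted p under 0.05. For the 6329 genes whose log2 signal averaged 9 or more, the log2 differences between the 2 UNSC arrays had an SD of 0.158. Those between the 2 UNTD arrays had an SD of 0.256, while the 4 pairs of a UNTD with a UNSC array gave 0.595 to 0.613. The replicate SD was larger in the other groups, 0.305 in UNPD, 0.503 in RAPD and 0.467 in RATD. Each SE and p-value uses the spread pooled over all 5 groups. The arrays carry no detection calls, so a level at or under its array's 40th percentile (4.81 to 5.12 on these 4 arrays) is called dim. Where a gene was dim on both arrays of a group, only a lower bound of the fold, taken against that percentile, is given.

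The defining genes of the promyelocyte were bright on all 4 arrays. Mpo, myeloperoxidase, stood at 15.12 and 15.11 on the UNSC arrays and 14.28 and 13.66 on the UNTD arrays. Elane, neutrophil elastase, read 14.05 and 14.07 on the UNSC arrays and 12.98 and 12.46 on the UNTD arrays. Ctsg, cathepsin G, read 15.36 and 15.45 on the UNSC arrays and 15.20 and 14.73 on the UNTD arrays. Prtn3, proteinase 3, lay at 14.29 and 14.38 on the UNSC arrays and 14.50 and 14.15 on the UNTD arrays. The stem and progenitor marker Cd34 was dim on all 4 arrays (2.95 and 4.41 on the UNSC arrays and 3.59 and 3.31 on the UNTD arrays). Both groups thus held the primary granule genes that the label promyelocytic implies, and the Cd34 signal was too dim to compare them.

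Many genes of monocytes and macrophages were higher in UNTD than in UNSC, while Kit, the granule genes Mpo and Elane, serine synthesis enzymes and a part of the cell cycle genes were lower. In all, 1189 genes were called, 8.15% of those tested: 723 were higher (4.96%) and 466 lower (3.2%). Each count of list members called below is to be set beside these shares of all genes. The increases were the larger. A change of at least 2-fold was fitted for 560 genes called higher and 235 called lower, at least 8-fold for 137 and 26, and at least 16-fold for 72 and 6. The median difference over all genes was -0.04. Both UNTD arrays lay above both UNSC arrays for 27.7% of genes and below them for 32.3%, and the arrays of the 2 groups overlapped for 0 of the called genes. A set of 56 called genes passed from dim on both UNSC arrays to above that level on both UNTD arrays, and 27 did the reverse. For 543 of the 616 called genes with several kept probe sets (88.1%) all probe sets had the same sign, against 56.9% of the genes not called.

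The number of calls depended on which arrays were fitted. It was 442, 398, 494 and 449 without UNSC replicate 1, UNSC replicate 2, UNTD replicate 1 and UNTD replicate 2, fits in which the lone array of a group is taken to vary like the others. With only these 4 arrays fitted 3291 genes were called, 1559 higher and 1732 lower. The genes called lower numbered 80, 91, 152 and 128 without those 4 arrays in turn, and 736 and 734 without RATD replicate 1 and replicate 2. All 191 called genes that the naming rule gave kept their sign in each of the 21 alternatives, and 113 of them stayed called whichever array was left out. Signs were open to change only under other normalizations, filters, offsets and probe set rules. Leaving out 1 array could not reverse them, as the arrays of the 2 groups overlapped for 0 of the called genes. The other fits left the difference itself unchanged. Where a call is said below to end without an array, the array named is the one that gave the largest adjusted p, and other arrays could end it too. The groups are bulk pools of cells, so fewer cells of a type and less RNA per cell cannot be told apart in any value below.

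**Figure D1:**
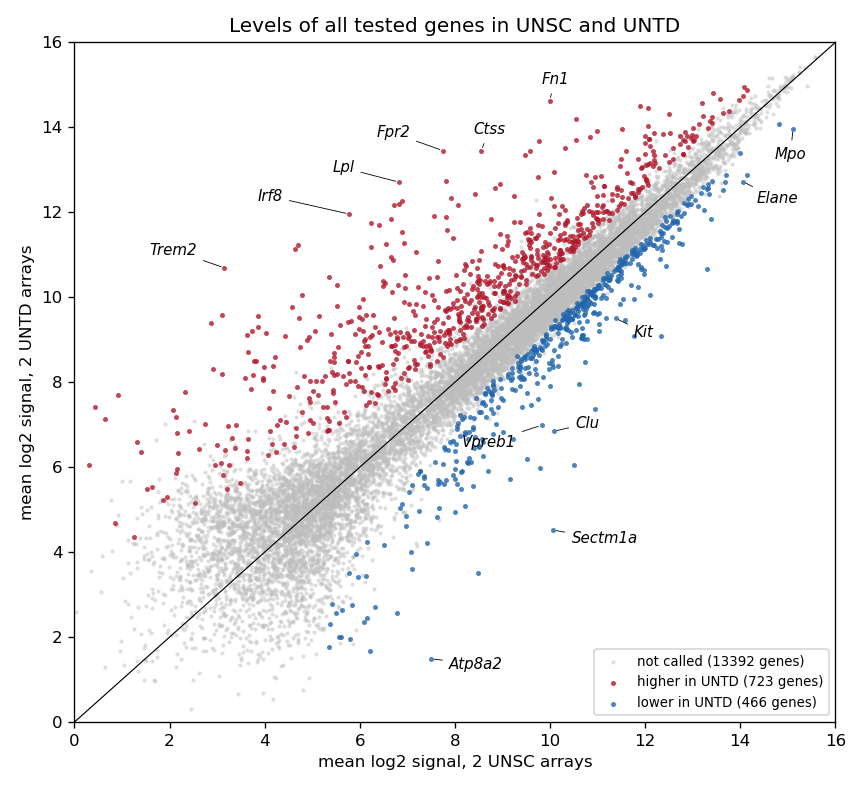
Mean log2 signal of each of the 14581 tested genes on the 2 UNSC arrays (horizontal) and the 2 UNTD arrays (vertical), with the line of equal levels. The 723 genes called higher (red) spread farther from the line than the 466 called lower (blue), with Trem2, Irf8, Lpl and Fpr2 at the upper edge and Sectm1a and Atp8a2 at the lower.

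Many transcription factors of the monocyte and dendritic lineage rose in UNTD. Irf8, which directs progenitors to the monocyte and dendritic fate, rose from 6.05 and 5.51 in UNSC to 11.64 and 12.28 in UNTD, a difference of 6.18 ± 0.44, adjusted p = 1.08e-05. Maf, a factor of differentiated macrophages, went from 4.64 and 4.93 in UNSC to 10.06 and 10.04 in UNTD (5.27 ± 0.40, adjusted p = 1.56e-05), where only 1 UNSC array was above the dim level. Klf4, needed for inflammatory monocytes, stood at 8.82 and 8.87 on the UNSC arrays and 12.31 and 12.84 on the UNTD arrays (3.73 ± 0.31, adjusted p = 3.07e-05). In each of these genes both UNTD arrays lay far above both UNSC arrays, and the gap between groups exceeded that between replicates. Irf5, a factor of inflammatory macrophages, differed by 3.67 ± 0.31, adjusted p = 3.22e-05. Klf2, a quiescence factor of monocytes and lymphocytes, differed by 3.28 ± 0.23, adjusted p = 1.08e-05. Irf7, which drives interferon production, was 6.67-fold higher (adjusted p = 0.00104). Of 23 tested members of this list 12 rose and 1 fell, with a median of 1.69 against -0.04 over all genes. The share called was 56.5%, against 8.15% of all genes. Spi1, which encodes PU.1, a factor of all myeloid cells, did not pass the test (11.67 and 11.60 on the UNSC arrays and 11.83 and 11.85 on the UNTD arrays, difference 0.21 ± 0.18, 95% interval -0.19 to 0.60). The untreated UNPD subset had Maf at 4.56 and 4.59 and Irf5 at 6.16 and 5.99, near the UNSC values.

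Factors of the granulocyte path gave a mixed picture. Gfi1, a repressor that favours the granulocyte over the monocyte fate, fell from 12.69 and 12.75 in UNSC to 11.46 and 11.08 in UNTD (-1.45 ± 0.30, adjusted p = 0.0116). Myb, which keeps progenitors immature, fell from 13.60 and 13.68 in UNSC to 12.67 and 12.36 in UNTD (-1.12 ± 0.18, adjusted p = 0.00298). Both were lower on each UNTD array, by 2.74-fold and 2.17-fold. Cebpb, a C/EBP factor of emergency granulopoiesis and of macrophages, rose by 0.73 ± 0.14, adjusted p = 0.00836. Trib1, a pseudokinase that promotes degradation of C/EBPα, rose by 1.45 ± 0.39, adjusted p = 0.0422. Cebpa, the C/EBP factor of granulocyte commitment, was not called (11.26 and 11.09 on the UNSC arrays and 11.37 and 11.45 on the UNTD arrays, 95% interval of the difference -0.11 to 0.58). Of 22 tested factors of granulocytes and progenitors 2 rose (0 to 2 when 1 array was left out, fewest without UNSC replicate 1, UNSC replicate 2 or UNTD replicate 2) and 2 fell (1 to 2 when 1 array was left out, fewest without UNSC replicate 1, UNSC replicate 2 or UNTD replicate 2), with a median of -0.24. Leaving out 1 array ended the call of Gfi1 (adjusted p up to 0.112, without UNTD replicate 2), Cebpb (adjusted p up to 0.104, without UNSC replicate 1) and Trib1 (adjusted p up to 0.294, without UNTD replicate 1).

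Among progenitor genes, those that fell included a receptor, a kinase of the cell cycle and a cytotoxic granule protein. Kit, the receptor for stem cell factor, stood at 11.35 and 11.41 on the UNSC arrays and 9.68 and 9.33 on the UNTD arrays, 3.66-fold lower (-1.87 ± 0.20, adjusted p = 0.000167). Cdk6, a kinase of G1 and of immature blood cells, fell from 13.40 and 13.36 in UNSC to 11.93 and 11.73 in UNTD (-1.55 ± 0.33, adjusted p = 0.0139). Nkg7, a granule membrane protein of cytotoxic cells and early myeloid cells, fell from 12.40 and 12.25 in UNSC to 9.57 and 8.60 in UNTD (-3.24 ± 0.36, adjusted p = 0.000242). The UNTD arrays lay below the UNSC arrays in all of these. Flt3, a receptor of lymphoid and dendritic progenitors, was dim in UNSC (2.36 and 1.96) and reached 5.90 and 6.03 in UNTD, at least 2.2-fold higher (adjusted p = 0.00986). Csf2rb2, a beta chain of the IL-3 receptor, rose by 0.91 ± 0.16, adjusted p = 0.00526. Its sequence is close to that of Csf2rb, so signal may be shared. Of 27 tested progenitor genes 3 rose (0 to 4 when 1 array was left out, fewest without UNSC replicate 2 or UNTD replicate 2, and 5 with only the 4 arrays fitted) and 4 fell (2 to 4 when 1 array was left out, fewest without any 1 of the 4 UNSC and UNTD arrays), with a median of 0.17. Csf3r, the receptor for G-CSF, differed by 0.22 ± 0.16 (adjusted p = 0.491, 95% interval -0.14 to 0.58). Without a single array the call was lost for Cdk6 (adjusted p up to 0.11, without UNTD replicate 2), Flt3 (adjusted p up to 0.0866, without UNTD replicate 2) and Csf2rb2 (adjusted p up to 0.0799, without UNSC replicate 2).

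In each list of phagocyte surface receptors more members rose than fell. Trem2, a lipid receptor of macrophages that signals through an ITAM adaptor, was dim in UNSC (2.49 and 3.81) and bright in UNTD (10.45 and 10.94), at least 58.3-fold higher (adjusted p = 1.56e-05). Only 1 of its 2 kept probe sets had this sign. Pirb, an inhibitory immunoglobulin-like receptor, rose from 7.66 and 7.95 in UNSC to 11.80 and 12.00 in UNTD (4.10 ± 0.23, adjusted p = 2.72e-06). Its probe set may not separate it from related Pir genes. Pilra, an inhibitory receptor of myeloid cells, rose from 6.82 and 6.59 in UNSC to 10.81 and 10.93 in UNTD (4.16 ± 0.28, adjusted p = 7.92e-06). For both, the groups stood many times farther apart than their own replicates. Fgr, a Src-family kinase that acts below these receptors, stood at 7.10 and 7.25 on the UNSC arrays and 10.94 and 11.17 on the UNTD arrays (3.88 ± 0.19, adjusted p = 1.14e-06). Fcgr4, an activating receptor for IgG, stood at 5.93 and 5.87 on the UNSC arrays and 9.48 and 8.80 on the UNTD arrays (3.24 ± 0.35, adjusted p = 0.000191). Of the Fc receptor and ITAM signalling list 45.5% was called, against 8.15% of all genes. Of 22 tested members 10 rose (5 to 13 when 1 array was left out, fewest without UNSC replicate 1, UNSC replicate 2 or UNTD replicate 1, and 17 with only the 4 arrays fitted) and 0 (1 at an unadjusted p under 0.05, 1 with only the 4 arrays fitted) fell, and the median was 0.77.

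The promoters of 3 of these genes are shown because the list as a whole held a PU.1-type motif in a larger share than all promoters did, among 39 lists searched for 8 motifs. PU.1 binds purine-rich sites in many myeloid promoters. The window was 250 bases before to 50 after the RefSeq start (GRCm38.p6), the letters searched were GAGGAAG on both strands (CTTCCTC where the match is on the other strand), and each line gives 80 bases, 5′ to 3′ on the gene's strand, with the match in capitals. Pirb lies at chr7:3720460-3720539 on the minus strand, Pilra at chr5:137836447-137836526 on the minus strand and Trem2 at chr17:48346321-48346400 on the plus strand.
Pirb: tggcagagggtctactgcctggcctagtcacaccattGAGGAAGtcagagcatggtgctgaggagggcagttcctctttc
Pilra: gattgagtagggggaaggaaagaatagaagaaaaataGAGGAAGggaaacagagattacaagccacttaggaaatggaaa
Trem2: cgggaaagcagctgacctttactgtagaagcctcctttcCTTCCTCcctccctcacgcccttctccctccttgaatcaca
The motif was in 11 of 19 matched promoters of the list (57.9%, exact 95% interval 33.5 to 79.7), against 13.5% of 27025 genes in the table, 55.6% of the 9 matched tissue-resident macrophage markers (interval 21.2 to 86.3), 35.7% of the 14 matched megakaryocyte markers (12.8 to 64.9), 17% of the 581 matched genes called higher and 13.9% of the 388 called lower. A match describes the letters and is not a measured binding site.

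C-type lectins and scavenger receptors, which bind sugars and lipids of microbes and dead cells, rose in part. Clec4n, the receptor dectin-2, rose from 7.94 and 7.67 in UNSC to 12.91 and 12.59 in UNTD (4.94 ± 0.48, adjusted p = 0.000103). Clec7a, dectin-1, which binds fungal glucans, rose from 9.65 and 9.52 in UNSC to 13.65 and 13.24 in UNTD (3.86 ± 0.38, adjusted p = 0.000107). Mgl2, a galactose-binding lectin, moved the other way, from 10.04 and 10.29 in UNSC to 8.53 and 8.21 in UNTD (-1.79 ± 0.23, adjusted p = 0.000626). The lectin list had 5 of 13 members higher (3 to 7 when 1 array was left out, fewest without any 1 of the 4 UNSC and UNTD arrays) and 1 lower, with a median of 1.07. Msr1, a scavenger receptor for modified lipoprotein, rose from 5.33 and 5.39 in UNSC to 10.55 and 10.43 in UNTD (5.13 ± 0.41, adjusted p = 2.41e-05). Lrp1, an endocytic receptor for apolipoproteins, rose from 6.94 and 6.38 in UNSC to 10.82 and 11.08 in UNTD (4.29 ± 0.29, adjusted p = 7.92e-06). Itgb2, the β chain of the complement receptors, stood at 11.09 and 10.89 on the UNSC arrays and 14.11 and 13.71 on the UNTD arrays, 7.59-fold higher. Its partner Itgam stood at 9.21 and 9.30 on the UNSC arrays and 10.75 and 10.96 on the UNTD arrays, 3.03-fold higher (adjusted p = 0.00292). Cfp, properdin, a plasma protein that stabilises complement on surfaces, differed by 4.36 ± 0.54, adjusted p = 0.00047. Of 20 tested scavenger, complement and phagocytic receptors 10 rose (5 to 11 when 1 array was left out, fewest without UNSC replicate 2) and 0 (0 at an unadjusted p under 0.05) fell, with a median of 2.06.

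Receptors that guide phagocytes had the highest median of the lists. Fpr2, a receptor for formyl peptides, read 7.84 and 7.66 on the UNSC arrays and 13.44 and 13.46 on the UNTD arrays, 52.1-fold higher with replicates nearly equal (5.70 ± 0.21, adjusted p = 1.38e-07). Cx3cr1, the fractalkine receptor of monocytes, rose from 5.43 and 5.62 in UNSC to 10.21 and 10.36 in UNTD (4.76 ± 0.47, adjusted p = 0.000104). Gpr35, an orphan receptor of macrophages, was dim in UNSC and at least 12.8-fold higher in UNTD (adjusted p = 0.000635). P2ry6, a receptor for UDP, went from 4.98 and 3.10 in UNSC to 8.98 and 9.34 in UNTD, with 1 UNSC array above the dim level (adjusted p = 0.00195). Ackr3, a scavenging receptor for CXCL12, was dim in UNSC (0.00 and 1.28) and reached 7.38 and 6.89, at least 4.95-fold higher (adjusted p = 0.0206). C5ar1, the receptor for complement C5a, rose by 1.88 ± 0.38, adjusted p = 0.00991. Of 17 tested members 8 rose (4 to 9 when 1 array was left out, fewest without any 1 of the 4 UNSC and UNTD arrays) and 0 (0 at an unadjusted p under 0.05) fell, with a median of 2.20. Calls that ended when an array was dropped were those of Ackr3 (adjusted p up to 0.188, without UNTD replicate 1) and C5ar1 (adjusted p up to 0.0851, without UNSC replicate 2).

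Cytokine receptors and sensors of microbes rose in part as well. Csf1r, the receptor on which monocytes and macrophages depend, stood at 10.67 and 10.41 on the UNSC arrays and 13.61 and 13.79 on the UNTD arrays, 8.92-fold higher (3.16 ± 0.35, adjusted p = 0.000248). UNPD lay between them at 11.97 and 11.40. Il6ra, the IL-6 receptor, rose from 9.56 and 9.58 in UNSC to 11.63 and 11.63 in UNTD (2.06 ± 0.24, adjusted p = 0.000323). Il10rb, a chain of the IL-10 receptor, rose from 9.62 and 9.54 in UNSC to 11.04 and 11.28 in UNTD (1.58 ± 0.17, adjusted p = 0.000176). Tgfbr2 was 3.36-fold and Notch1 2.21-fold higher (adjusted p = 0.0003 and 0.00135). Of 27 tested cytokine receptors 12 rose (7 to 13 when 1 array was left out, fewest without UNSC replicate 1 or UNTD replicate 1) and 0 (2 at an unadjusted p under 0.05, 1 without RAPD replicate 1, RATD replicate 1 or RATD replicate 2, 3 with only the 4 arrays fitted) fell, median 0.69. Tlr13, a sensor of bacterial ribosomal RNA, rose from 6.24 and 6.62 in UNSC to 10.68 and 10.80 in UNTD (4.31 ± 0.38, adjusted p = 4.45e-05). Tlr2, a sensor of bacterial lipoproteins, was 5.31-fold higher (2.41 ± 0.36, adjusted p = 0.00174), and the adaptor kinase Irak2 3.71-fold (1.89 ± 0.23, adjusted p = 0.00041). Cd14, the co-receptor for lipopolysaccharide, rose from 11.45 and 11.38 in UNSC to 12.88 and 12.21 in UNTD (1.13 ± 0.24, adjusted p = 0.0128). Ly86, which pairs with a homologue of the Toll-like receptors, was dim in UNSC and at least 4.83-fold higher (adjusted p = 0.00824). Of 26 tested sensors and adaptors 8 rose (3 to 9 when 1 array was left out, fewest without UNSC replicate 1 or UNTD replicate 1, and 15 with only the 4 arrays fitted) and 0 (0 at an unadjusted p under 0.05) fell, median 1.13. Dropping an array ended the call of Cd14 (adjusted p up to 0.136, without UNTD replicate 1) and Ly86 (adjusted p up to 0.0744, without UNSC replicate 1).

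**Figure D2:**
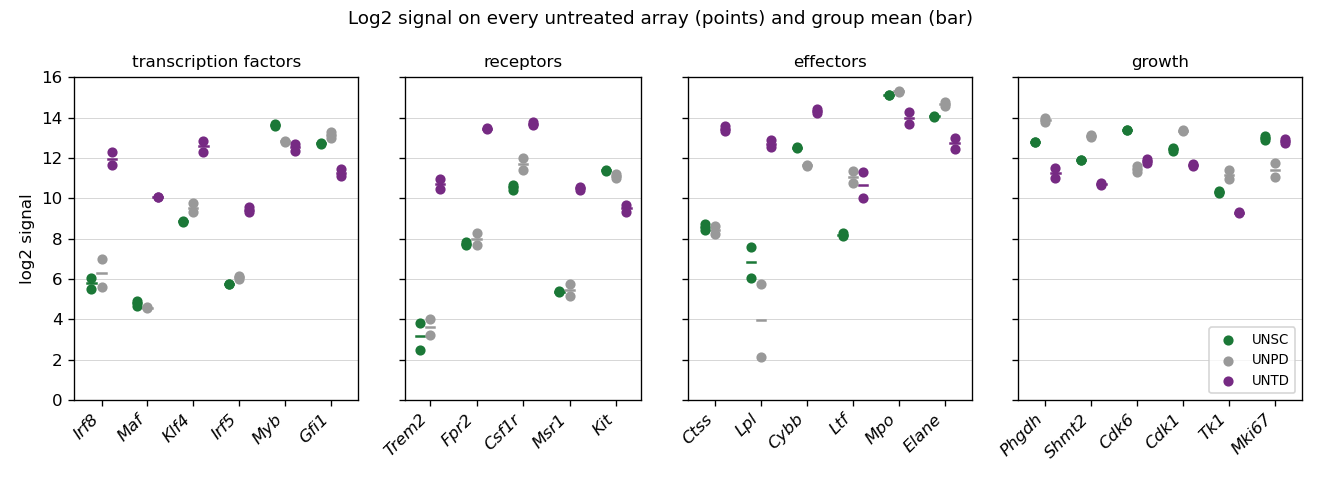
Log2 signal of selected genes on each UNSC (green), UNPD (grey) and UNTD (purple) array as points, with group means as bars. For Irf8, Fpr2 and Ctss both UNTD points lie far above the other 4, while for Gfi1, Kit, Phgdh and Tk1 they lie below them. Mki67 overlaps between UNSC and UNTD.

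Several chemokines and matrix proteins rose. Ccl6, a CC chemokine of rodent myeloid cells, rose from 10.49 and 10.63 in UNSC to 14.32 and 14.06 in UNTD (3.63 ± 0.33, adjusted p = 6.27e-05). Ccl9, its neighbour in the genome, rose from 10.85 and 10.83 in UNSC to 13.90 and 13.64 in UNTD (2.93 ± 0.36, adjusted p = 0.000487). Tnf rose from 7.12 and 7.16 in UNSC to 9.38 and 9.10 in UNTD (2.10 ± 0.25, adjusted p = 0.000347). Tgfbi, a matrix protein induced by TGF-β, rose from 6.27 and 6.14 in UNSC to 8.82 and 9.33 in UNTD (2.87 ± 0.36, adjusted p = 0.00056). Ccl2, the chemokine that recruits monocytes, stood at 10.08 and 8.95 in UNTD, with UNSC replicate 1 at 5.88 and replicate 2 in the dim range at 3.55 (adjusted p = 0.00624). Of 29 tested ligands 9 rose (4 to 11 when 1 array was left out, fewest without UNSC replicate 2 or UNTD replicate 1) and 2 fell, with a median of 0.71. Fn1, fibronectin, reached 14.79 and 14.46 in UNTD against 9.94 and 10.05 in UNSC, 24.8-fold higher (4.63 ± 0.33, adjusted p = 1.08e-05). Itgb5, a chain of the vitronectin receptor, rose by 1.72 ± 0.24, adjusted p = 0.00124. Lgals3, galectin-3, rose by 1.10 ± 0.18, adjusted p = 0.00263. Anxa1, a phospholipid-binding protein that limits inflammation, rose by 1.37 ± 0.22, adjusted p = 0.00281. Of 32 tested integrins and adhesion genes 15 rose (7 to 18 when 1 array was left out, fewest without UNSC replicate 2 or UNTD replicate 1) and 2 fell, with a median of 0.80. The call that did not hold without a single array was that of Ccl2 (adjusted p up to 0.0922, without UNTD replicate 1).

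Genes for killing and digesting ingested material rose in both of their lists. Slc11a1, a metal transporter of the phagosome, rose from 6.48 and 6.61 in UNSC to 11.20 and 11.31 in UNTD (4.71 ± 0.28, adjusted p = 4.57e-06). Lsp1, a leukocyte protein that binds actin, rose from 8.17 and 7.95 in UNSC to 12.04 and 12.30 in UNTD (4.11 ± 0.38, adjusted p = 6.27e-05). Cybb, the membrane-bound catalytic chain of the oxidase, stood at 12.47 and 12.55 on the UNSC arrays and 14.40 and 14.21 on the UNTD arrays (1.80 ± 0.23, adjusted p = 0.000635). The cytosolic subunit Ncf4 stood at 12.18 and 12.19 on the UNSC arrays and 13.42 and 13.29 on the UNTD arrays (1.17 ± 0.22, adjusted p = 0.00641). Mpeg1, a pore-forming protein of macrophages, rose by 1.84 ± 0.31, adjusted p = 0.00355. Of 14 tested genes of the oxidase and burst 6 rose (4 to 7 when 1 array was left out, and 10 with only the 4 arrays fitted) and 0 (0 at an unadjusted p under 0.05) fell, with a median of 0.50. Among lysosomal genes Ctss, a protease that also processes the MHC class II invariant chain, rose from 8.40 and 8.71 in UNSC to 13.34 and 13.56 in UNTD (29.7-fold, adjusted p = 7.92e-06). Psap, the precursor of the saposins that activate sphingolipid hydrolases, stood at 11.90 and 11.90 on the UNSC arrays and 14.51 and 14.50 on the UNTD arrays (2.61 ± 0.15, adjusted p = 2.72e-06), and its replicates were almost the same. Ctsh differed by 3.07 ± 0.22, adjusted p = 1.04e-05, Ctsd by 1.64 ± 0.17, adjusted p = 0.000176 and Lipa, the acid lipase, by 1.44 ± 0.19, adjusted p = 0.000688. Of 36 tested lysosomal genes 16 rose (11 to 18 when 1 array was left out, and 26 with only the 4 arrays fitted) and 0 (1 at an unadjusted p under 0.05, 1 without RATD replicate 1 or RATD replicate 2, 2 with only the 4 arrays fitted) fell, with a median of 0.70. An array left out ended the call of Ncf4 (adjusted p up to 0.0608, without UNSC replicate 2).

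Lipid genes of macrophages were among the larger increases. Lpl, lipoprotein lipase, rose from 6.06 and 7.59 in UNSC to 12.88 and 12.54 in UNTD (5.89 ± 0.89, adjusted p = 0.00179), and its UNSC arrays were the more scattered. Apoe, apolipoprotein E, went from 6.81 and 6.96 in UNSC to 11.27 and 11.82 in UNTD, 25.3-fold higher. Apoc2, the activator of lipoprotein lipase, went from 6.13 and 6.87 in UNSC to 10.21 and 10.33 in UNTD, 13.7-fold (adjusted p = 0.000143). Fabp4, a fatty acid carrier of fat cells and macrophages, was dim in UNSC (3.79 and 4.56) and at least 11.7-fold higher in UNTD (adjusted p = 0.00123). Of 25 tested lipid genes 11 rose (8 to 12 when 1 array was left out) and 0 (1 at an unadjusted p under 0.05) fell, with a median of 0.95. Pla2g7, which hydrolyses platelet-activating factor, rose from 6.76 and 6.57 in UNSC to 11.86 and 11.82 in UNTD (5.18 ± 0.36, adjusted p = 9.82e-06). Cyp4f18, which inactivates leukotriene B4, rose from 4.94 and 4.83 in UNSC to 8.44 and 9.54 in UNTD (4.10 ± 0.35, adjusted p = 3.22e-05). Its UNSC levels lay just above the dim level, and its difference ran from 2.62 to 4.66 over the alternatives. The other 16 tested genes of prostaglandin and leukotriene synthesis were not called, among them Lta4h, which makes leukotriene B4 (-0.91 ± 0.28, adjusted p = 0.0742), and Ltc4s (1.96 ± 0.66, adjusted p = 0.102). The share of that list called was 11.1%, against 8.15% of all genes. With only the 4 arrays fitted, 9 of that list were called higher and 2 lower.

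A few MHC class II genes rose from a low level. H2-Aa stood at 5.32 and 5.21 on the UNSC arrays and 8.18 and 8.12 on the UNTD arrays (2.88 ± 0.58, adjusted p = 0.00985). H2-Ab1, its partner chain, was dim in UNSC and at least 7.23-fold higher in UNTD (adjusted p = 0.00992). H2-DMa, which loads peptides onto class II, rose by 2.03 ± 0.32, adjusted p = 0.0023. With the mean of probe sets in place of the brightest, H2-DMa (adjusted p = 0.104) and H2-Ab1 were not called. Cd74, the invariant chain, stood at 6.76 and 6.71 on the UNSC arrays and 8.19 and 8.21 on the UNTD arrays and was not called (1.47 ± 0.42, adjusted p = 0.0566). Of 16 tested members 4 rose (1 to 7 when 1 array was left out, fewest without UNSC replicate 1, UNTD replicate 1 or UNTD replicate 2, most without RATD replicate 2, and 8 with only the 4 arrays fitted) and 0 (0 at an unadjusted p under 0.05) fell, with a median of 1.26. Leaving out 1 array ended the call of H2-Aa (adjusted p up to 0.0757, without UNSC replicate 2) and H2-Ab1 (adjusted p up to 0.0887, without UNTD replicate 2).

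Some primary granule genes fell and some secondary and tertiary granule genes rose, while most of each list was not called. Of the primary granule genes Elane fell from 14.05 and 14.07 in UNSC to 12.98 and 12.46 in UNTD (2.52-fold lower, -1.34 ± 0.23, adjusted p = 0.00344) and Mpo by 1.14 ± 0.27 (adjusted p = 0.0246). Ms4a3, a membrane protein of granulocyte and monocyte progenitors, fell from 14.79 and 14.82 in UNSC to 14.24 and 13.95 in UNTD (-0.71 ± 0.17, adjusted p = 0.022). Prtn3 and Ctsg, both made with Elane, were not called: Prtn3 overlapped between the groups (difference -0.01 ± 0.18, 95% interval -0.40 to 0.38), and Ctsg differed by -0.45 ± 0.19 (interval -0.86 to -0.03, adjusted p = 0.19). Ctsc, the protease that activates these enzymes, rose from 12.40 and 12.36 in UNSC to 13.95 and 13.76 in UNTD (1.47 ± 0.24, adjusted p = 0.00279). Of 23 tested primary granule genes 1 rose and 5 fell (1 to 6 when 1 array was left out, fewest without UNSC replicate 1, UNSC replicate 2 or UNTD replicate 2), with a median of -0.19. Among secondary and tertiary granule genes, Mmp9, gelatinase B, was dim in UNSC (3.50 and 4.45) and at least 9.35-fold higher in UNTD (8.25 and 7.86, adjusted p = 0.000822). Ltf, lactoferrin, rose from 8.12 and 8.27 in UNSC to 11.28 and 10.01 in UNTD (2.46 ± 0.48, adjusted p = 0.00842), where the UNTD arrays were far apart. Lcn2, a siderophore-binding protein, rose from 13.38 and 13.50 in UNSC to 14.95 and 14.65 in UNTD (1.37 ± 0.18, adjusted p = 0.000688). Adam8 rose by 2.54 ± 0.29, adjusted p = 0.0003. The stefins Stfa2l1 and Stfa3 rose by 3.72 ± 0.28 and 3.19 ± 0.25, as near-identical copies that may share signal. The granule lists are broader than granule contents, and Ms4a3, Igfbp4, the stefins and Arg1 are not read here as granule proteins. Ms4a3 and Igfbp4 are among the 5 members of the primary granule list that fell. Arg1, arginase, was dim in UNSC and at least 19.6-fold higher (adjusted p = 0.0019). Camp, the cathelicidin, was bright, with arrays of both groups at 14.05 or more that overlapped (difference 0.09 ± 0.20, 95% interval -0.35 to 0.53). Of 29 tested genes 12 rose (9 to 16 when 1 array was left out) and 0 (1 at an unadjusted p under 0.05, 1 without RATD replicate 1 or RATD replicate 2, 1 with only the 4 arrays fitted) fell, with a median of 0.93.

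In UNPD Ltf was at 11.37 and 10.76 and Lcn2 at 14.66 and 14.58, both above UNSC, whereas Mmp9 there read 7.14 and 6.14. In the mature neutrophil list Ifitm6 rose from 8.35 and 8.50 in UNSC to 12.31 and 12.55 in UNTD (4.01 ± 0.21, adjusted p = 2.03e-06), and Slfn1 and Wfdc17 by 3.80 ± 0.49 (adjusted p = 0.000656) and 3.89 ± 0.59 (adjusted p = 0.00185). Of 29 tested members of that list 9 rose (4 to 10 when 1 array was left out, fewest without UNSC replicate 2, and 16 with only the 4 arrays fitted) and 0 (0 at an unadjusted p under 0.05) fell, with a median of 0.51. Without a single array the call was lost for Mpo (adjusted p up to 0.203, without UNTD replicate 2), Ms4a3 (adjusted p up to 0.169, without UNSC replicate 2) and Ltf (adjusted p up to 0.0981, without UNTD replicate 1).

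Immediate early genes, which a stimulus or tissue handling induces within minutes, were higher for several members. Atf3, a stress-induced factor, rose from 5.05 and 5.05 in UNSC to 9.16 and 9.24 in UNTD (4.15 ± 0.49, adjusted p = 0.000369). Fosl2, an AP-1 subunit, rose from 8.99 and 8.92 in UNSC to 11.24 and 11.75 in UNTD (2.54 ± 0.30, adjusted p = 0.000326). Klf10 differed by 1.16 ± 0.18, adjusted p = 0.00213 and Klf6 by 1.29 ± 0.22, adjusted p = 0.00336. Jun rose by 1.48 ± 0.32, adjusted p = 0.0142 and Egr1 by 1.11 ± 0.25, adjusted p = 0.0186. Fos, bright on all 4 arrays (13.51 and 13.51 in UNSC), was not called (difference 0.29 ± 0.28, 95% interval -0.33 to 0.91). Jund rose by 1.02 ± 0.20, adjusted p = 0.00808, with its other probe set of the opposite sign. Of 20 tested members 9 rose (4 to 11 when 1 array was left out, fewest without UNSC replicate 1, UNSC replicate 2 or UNTD replicate 1) and 0 (0 at an unadjusted p under 0.05) fell, with a median of 0.95. The list's part in the other differences was not tested. Feedback regulators rose too: Dusp6, a phosphatase of ERK, rose from 10.77 and 10.75 in UNSC to 12.93 and 12.85 in UNTD (2.13 ± 0.18, adjusted p = 3.06e-05). Zfp36, which destabilises cytokine mRNAs, rose by 1.79 ± 0.19, adjusted p = 0.000176 and Gadd45g by 2.44 ± 0.31, adjusted p = 0.000626. Of 29 feedback genes 9 rose (5 to 11 when 1 array was left out, fewest without UNSC replicate 1, UNSC replicate 2 or UNTD replicate 1) and 1 fell, with a median of 0.48. Calls that ended when an array was dropped were those of Jun (adjusted p up to 0.121, without UNTD replicate 1), Egr1 (adjusted p up to 0.188, without UNSC replicate 1) and Jund (adjusted p up to 0.0952, without UNTD replicate 1).

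Interferon response genes and retinoid genes changed in part. Samhd1, which degrades deoxynucleotides, rose from 9.72 and 9.76 in UNSC to 11.40 and 11.55 in UNTD (1.73 ± 0.23, adjusted p = 0.000759). Ifi27l2a rose from 7.89 and 8.03 in UNSC to 11.13 and 11.66 in UNTD (3.43 ± 0.49, adjusted p = 0.00124). Irf1 and Usp18 rose by 0.95 ± 0.23 (adjusted p = 0.0243) and 2.15 ± 0.55 (adjusted p = 0.0319). Of 45 tested interferon genes 6 rose (3 to 12 when 1 array was left out, fewest without UNSC replicate 2, UNTD replicate 1 or UNTD replicate 2, most without RATD replicate 2, and 21 with only the 4 arrays fitted) and 0 (1 at an unadjusted p under 0.05, 1 without RATD replicate 1 or RATD replicate 2, 3 with only the 4 arrays fitted) fell, with a median of 0.63. No ATRA had been given, and among 23 tested retinoid genes 2 rose (2 to 3 when 1 array was left out, and 6 with only the 4 arrays fitted) and 2 fell (1 to 2 when 1 array was left out, fewest without UNSC replicate 1, UNSC replicate 2, UNPD replicate 1, UNPD replicate 2, UNTD replicate 1 or UNTD replicate 2), with a median of 0.34. The shares called were 13.3% of the interferon list and 17.4% of the retinoid list, against 8.15% of all genes. Dhrs3, which reduces retinaldehyde, rose from 9.10 and 8.58 in UNSC to 11.09 and 11.30 in UNTD (2.36 ± 0.23, adjusted p = 0.000104). The receptor gene Rarg rose from 6.51 and 6.87 in UNSC to 8.89 and 8.82 in UNTD (2.17 ± 0.26, adjusted p = 0.000352). Retsat, which saturates retinol, fell from 10.59 and 10.72 in UNSC to 8.96 and 9.13 in UNTD (-1.61 ± 0.24, adjusted p = 0.0015). Rdh12, a retinol dehydrogenase, fell from 9.81 and 9.55 in UNSC to 8.44 and 8.19 in UNTD (-1.37 ± 0.35, adjusted p = 0.0333). Rara, the mouse gene of the receptor in the fusion, stood at 5.89 and 6.33 on the UNSC arrays and 8.07 and 8.16 on the UNTD arrays and was not called (2.01 ± 0.66, adjusted p = 0.09), nor was Pml (-0.50 ± 0.34, adjusted p = 0.435, with 2 of 3 probe sets of that sign). Dropping an array ended the call of Irf1 (adjusted p up to 0.188, without UNTD replicate 2), Usp18 (adjusted p up to 0.167, without UNTD replicate 1) and Rdh12 (adjusted p up to 0.216, without UNSC replicate 1).

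Among genes of DNA replication and mitosis more fell than rose, by small amounts. Tk1, thymidine kinase, fell from 10.35 and 10.27 in UNSC to 9.31 and 9.24 in UNTD (-1.03 ± 0.20, adjusted p = 0.00862). Rfc4, a clamp loader subunit, fell by 0.98 ± 0.21 (adjusted p = 0.0125). Cdc45, part of the replicative helicase, fell by 0.97 ± 0.20 (adjusted p = 0.0104), and Dut, which clears dUTP, fell by 0.86 ± 0.17 (adjusted p = 0.00861). Of 50 tested replication genes both UNTD arrays lay below both UNSC arrays for 44, against the 32.3% of all genes, and 14 passed the test as lower against the 3.2%. E2f2, an activator of replication genes, was the 1 member called higher (from 6.46 and 6.48 in UNSC to 8.58 and 9.33 in UNTD, 2.49 ± 0.30, adjusted p = 0.000384). Among mitosis genes Nek2, a centrosome kinase, fell from 10.45 and 10.30 in UNSC to 9.13 and 9.34 in UNTD (-1.14 ± 0.20, adjusted p = 0.00438). Plk1, a mitotic kinase, fell by 0.93 ± 0.21 (adjusted p = 0.0174). Cdk1, the kinase that starts mitosis, fell from 12.36 and 12.50 in UNSC to 11.60 and 11.71 in UNTD (-0.77 ± 0.16, adjusted p = 0.0122). Cenpn, a centromere protein, fell by 0.99 ± 0.22 and Bub1b, a spindle checkpoint kinase, by 0.81 ± 0.19 (adjusted p = 0.0187 and 0.0217). Of 58 tested mitosis genes 52 had both UNTD arrays below both UNSC arrays and 11 fell. The medians were -0.55 and -0.65 against -0.04 over all genes. Mki67, the proliferation antigen, overlapped between the groups (12.89 and 13.09 on the UNSC arrays and 12.93 and 12.75 on the UNTD arrays, 95% interval -0.76 to 0.45). With the mean of probe sets in place of the brightest, Cdc45, Dut and Bub1b were not called, and Bub1b differed by -0.35.

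The number of these calls depended on the fit: for replication genes it was 0 to 23 when 1 array was left out, fewest without UNSC replicate 1, UNSC replicate 2 or UNTD replicate 1, most without RAPD replicate 1 or RAPD replicate 2, and 40 with only the 4 arrays fitted. For mitosis genes it was 0 to 24 when 1 array was left out, fewest without UNSC replicate 1, most without RAPD replicate 1 or RAPD replicate 2, and 45 with only the 4 arrays fitted. The medians ran from -0.66 to -0.49 and from -0.70 to -0.52 over the 21 alternatives, several of which leave the differences as they are. The calls that did not hold without a single array were those of Tk1 (adjusted p up to 0.0928, without UNSC replicate 1), Rfc4 (adjusted p up to 0.121, without UNSC replicate 1), Cdc45 (adjusted p up to 0.123, without UNSC replicate 1), Dut (adjusted p up to 0.103, without UNSC replicate 2), Nek2 (adjusted p up to 0.0666, without UNSC replicate 1), Plk1 (adjusted p up to 0.165, without UNTD replicate 1), Cdk1 (adjusted p up to 0.145, without UNSC replicate 2), Cenpn (adjusted p up to 0.177, without UNTD replicate 2) and Bub1b (adjusted p up to 0.178, without UNSC replicate 2).

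Promoter stretches of 5 of the genes called lower are shown because these lists carry 2 well-known cell cycle motifs. E2F factors act on replication genes near the start of S phase, and the CHR element recruits the complexes that time mitotic genes. The letters were TTTGGCGC, TTTCCCGC or TTTCGCGC for the E2F type and TTTGAA for the core of the CHR, on either strand of the same window, with matches in capitals. Orc1 lies at chr4:108579374-108579453 on the plus strand, Cdc6 lies at chr11:98907977-98908056 on the plus strand, Cdk1 lies at chr10:69352913-69352992 on the minus strand, Cenpn lies at chr8:116921660-116921739 on the plus strand and Kif2c at chr4:117178833-117178912 on the minus strand. Orc1 and Cdc6 load the replicative helicase, and Kif2c is a kinesin that removes tubulin at centromeres.
Orc1: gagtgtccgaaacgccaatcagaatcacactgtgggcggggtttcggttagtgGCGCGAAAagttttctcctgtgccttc
Cdc6: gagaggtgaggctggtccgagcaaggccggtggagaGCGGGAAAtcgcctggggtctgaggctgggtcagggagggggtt
Cdk1: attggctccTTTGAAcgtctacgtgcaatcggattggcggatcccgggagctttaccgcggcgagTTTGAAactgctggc
Cenpn: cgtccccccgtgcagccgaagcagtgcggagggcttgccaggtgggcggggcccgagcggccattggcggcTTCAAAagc
Kif2c: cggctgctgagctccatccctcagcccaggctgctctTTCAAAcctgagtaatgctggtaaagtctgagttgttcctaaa
An E2F-type match was in 14 of 41 replication promoters (34.1%, exact 95% interval 20.1 to 50.6) against 1.91% of all 27025 genes. A CHR core was in 33 of 49 mitosis promoters (67.3%, interval 52.5 to 80.1) against 18.1%, and in 34.7% against 16.3% when only the bases before the start were read. Over all 388 matched genes called lower the shares were 4.38% (interval 2.57 to 6.92) and 15.5% (interval 12 to 19.5).

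Besides Cdk6, some G1 regulators changed. Cdkn2b and Cdkn2a, inhibitors of CDK4 and CDK6, were higher: Cdkn2b went from dim in UNSC (3.41 and 2.85) to 5.59 and 6.05, at least 1.99-fold (adjusted p = 0.00455), and Cdkn2a from 6.33 and 6.40 in UNSC to 7.63 and 7.80 in UNTD (1.36 ± 0.31, adjusted p = 0.0196). Both were above UNSC in UNPD as well, Cdkn2b at 6.11 and 5.99 and Cdkn2a at 8.53 and 8.25. Btg1, an antiproliferative gene, rose by 1.64 ± 0.20, adjusted p = 0.000369, and Ccnd3, cyclin D3, by 0.86 ± 0.17, adjusted p = 0.00873. Of 37 tested G1 genes 5 rose (1 to 7 when 1 array was left out, fewest without UNTD replicate 2, and 10 with only the 4 arrays fitted) and 2 fell, with a median of 0.09. The share of the G1 list called was 18.9%, against 8.15% of all genes. With the mean of probe sets Ccnd3 was not called. Myc was not called (12.03 and 12.05 on the UNSC arrays and 12.01 and 11.56 on the UNTD arrays, 95% interval -0.71 to 0.19). An array left out ended the call of Cdkn2b (adjusted p up to 0.0585, without UNTD replicate 2), Cdkn2a (adjusted p up to 0.134, without UNTD replicate 2) and Ccnd3 (adjusted p up to 0.0961, without UNSC replicate 2).

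Genes of serine synthesis and some of ribosome biogenesis fell. The serine pathway fell at each of its 3 steps: Phgdh from 12.77 and 12.80 in UNSC to 11.49 and 11.01 in UNTD (-1.53 ± 0.26, adjusted p = 0.00361), Psat1 from 12.30 and 12.21 in UNSC to 11.15 and 11.18 in UNTD (-1.09 ± 0.23, adjusted p = 0.0147) and Psph from 11.05 and 11.01 in UNSC to 9.40 and 9.88 in UNTD (-1.40 ± 0.22, adjusted p = 0.00241). Shmt2 and Shmt1, which pass serine's carbon to folate, fell by 1.19 ± 0.19 and 0.90 ± 0.19 (adjusted p = 0.00223 and 0.0143). Each of these 5 was higher in UNPD than in UNSC on all arrays, with Phgdh there at 13.97 and 13.77. With the mean of probe sets in place of the brightest, Shmt2 (adjusted p = 0.0769) and Shmt1 were not called. Of 27 tested genes of serine and one-carbon synthesis 1 rose and 5 fell (2 to 10 when 1 array was left out, fewest without UNTD replicate 2, most without RATD replicate 1 or RATD replicate 2, and 14 with only the 4 arrays fitted), with a median of -0.49. Of 54 genes of ribosome biogenesis 49 had both UNTD arrays below both UNSC arrays, 0 (0 at an unadjusted p under 0.05) rose and 5 fell (0 to 14 when 1 array was left out, fewest without any 1 of the 4 UNSC and UNTD arrays, most without RATD replicate 1 or RATD replicate 2, and 28 with only the 4 arrays fitted), with a median of -0.43. Over all genes 32.3% had both UNTD arrays below both UNSC arrays and 3.2% were called lower. Tbl3, a factor of small subunit processing, fell from 9.53 and 9.87 in UNSC to 8.82 and 8.71 in UNTD (-0.94 ± 0.21, adjusted p = 0.0158). Nolc1, a nucleolar phosphoprotein, fell from 11.78 and 11.85 in UNSC to 11.02 and 10.93 in UNTD (-0.84 ± 0.19, adjusted p = 0.0188). Leaving out 1 array ended the call of Phgdh (adjusted p up to 0.0568, without UNTD replicate 2), Psat1 (adjusted p up to 0.122, without UNSC replicate 1), Shmt1 (adjusted p up to 0.134, without UNSC replicate 1), Tbl3 (adjusted p up to 0.196, without UNSC replicate 2) and Nolc1 (adjusted p up to 0.156, without UNSC replicate 2).

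Of 60 respiratory chain and ATP synthase genes 0 (0 at an unadjusted p under 0.05) rose and 1 fell (0 to 4 when 1 array was left out, fewest without any 1 of the 4 UNSC and UNTD arrays, most without RAPD replicate 1 or RAPD replicate 2, and 12 with only the 4 arrays fitted), with a median of -0.19. The share called in this list, 1.67%, lay under the 3.2% of all genes called lower. The 1 called was Ndufa5, a subunit of complex I (from 11.77 and 11.77 in UNSC to 11.11 and 11.12 in UNTD, -0.66 ± 0.16, adjusted p = 0.0287). In glycolysis the glucose transporters Slc2a1 and Slc2a6 rose by 1.47 ± 0.29, adjusted p = 0.00861 and 2.66 ± 0.69, adjusted p = 0.034. The aldolase Aldoc rose by 1.19 ± 0.27, adjusted p = 0.019. Rpia, of the pentose phosphate pathway, fell by 0.64 ± 0.17 (adjusted p = 0.0423). The other 24 tested members were not called, the share called was 14.3% against 8.15% of all genes, and the median was 0.08. The death genes Bmf and Bcl2l11, pro-apoptotic BH3-only proteins, rose from 6.68 and 6.87 in UNSC to 8.77 and 9.27 in UNTD and from 9.96 and 10.06 in UNSC to 11.43 and 11.60 in UNTD (2.24 ± 0.29, adjusted p = 0.000635 and 1.51 ± 0.21, adjusted p = 0.00102). Mcl1, which opposes them, rose by 0.85 ± 0.23, adjusted p = 0.0425. Among BCL2 family and death genes 17.9% were called, against 8.15% of all genes. Of 28 tested BCL2 family and death genes 5 rose (2 to 5 when 1 array was left out, fewest without any 1 of the 4 UNSC and UNTD arrays) and 0 (2 at an unadjusted p under 0.05, 1 without RATD replicate 1 or RATD replicate 2, 1 with only the 4 arrays fitted) fell, with a median of 0.02. Without a single array the call was lost for Ndufa5 (adjusted p up to 0.194, without UNSC replicate 1), Slc2a1 (adjusted p up to 0.106, without UNTD replicate 2), Slc2a6 (adjusted p up to 0.176, without UNTD replicate 2), Aldoc (adjusted p up to 0.149, without UNSC replicate 2), Rpia (adjusted p up to 0.28, without UNSC replicate 1) and Mcl1 (adjusted p up to 0.22, without UNSC replicate 2).

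**Figure D3:**
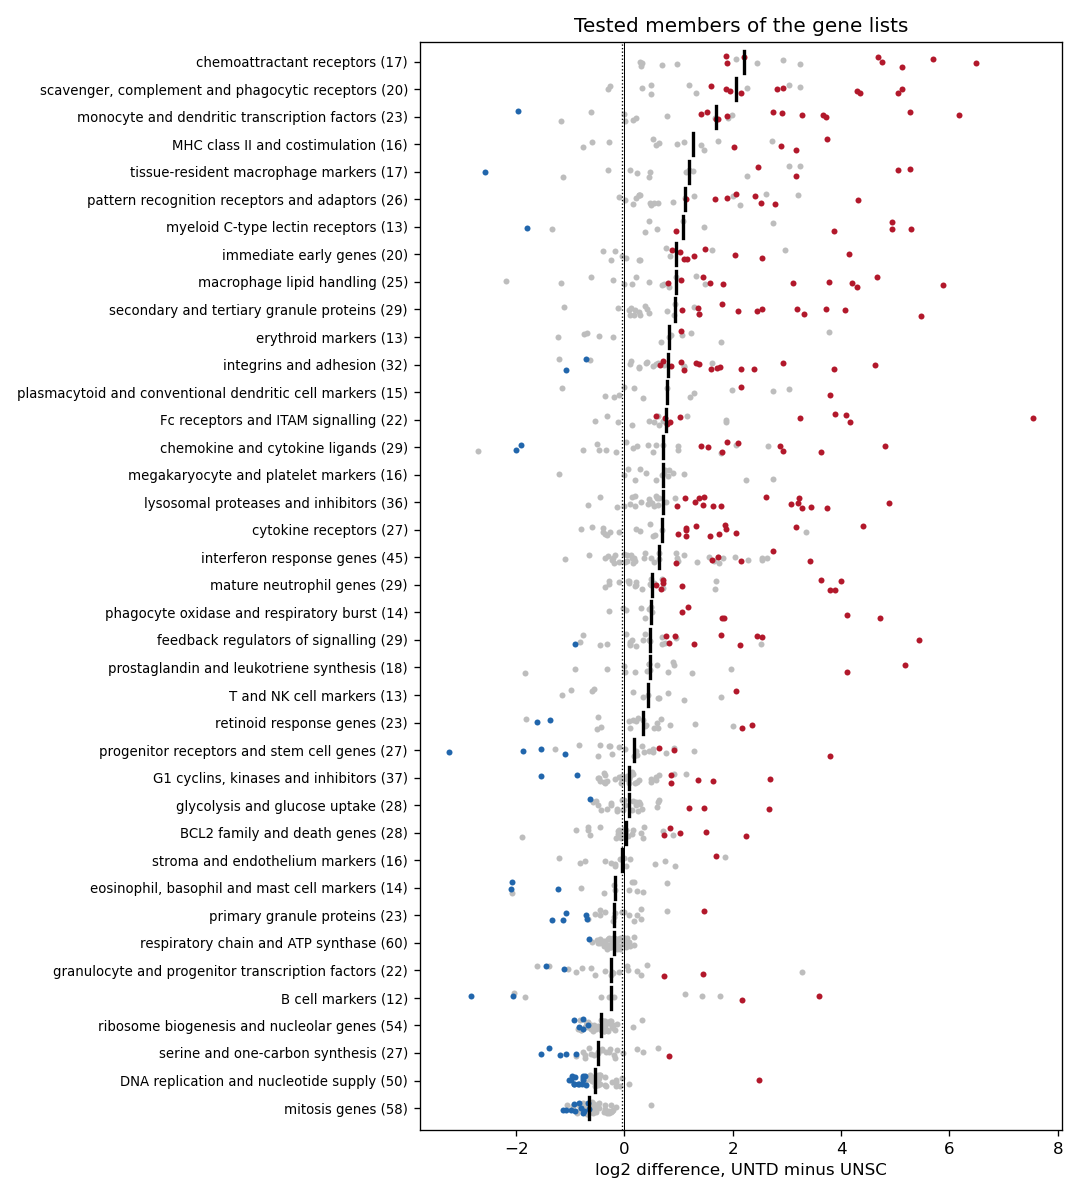
Log2 difference (UNTD minus UNSC) of each tested member of the 39 gene lists, with red points called higher, blue points called lower and grey points not called. Black bars are list medians, the dotted line is the median of all genes, the number of tested members stands in brackets, and vertical scatter only separates points. Chemoattractant receptors have the highest median (2.20) and mitosis genes the lowest (-0.65).

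Many of the largest differences lay outside these lists, though Zfp36l1 below belongs to the feedback regulators, where it differed most (5.44). Sirpb1a, a signal-regulatory receptor of myeloid cells, was at least 79-fold higher in UNTD, with UNSC in the dim range at 4.79 and 4.49 and UNTD at 11.02 and 11.25 (adjusted p = 0.00096). Ms4a7, a four-span membrane protein of macrophages, rose from 5.04 and 4.38 in UNSC to 10.94 and 11.53 in UNTD (1 UNSC array above the dim level, adjusted p = 0.000438). Ms4a6d of the same family rose from 6.73 and 6.71 in UNSC to 11.82 and 12.54 in UNTD (5.46 ± 0.54, adjusted p = 0.000108). Marchf1, a ubiquitin ligase that removes MHC class II from the surface, was at least 27-fold higher (adjusted p = 0.00214). Ifi202b, of an interferon-inducible family with close copies, was at least 23.5-fold higher (adjusted p = 0.000233), and Slc15a3, a peptide transporter of endosomes, at least 7.29-fold (adjusted p = 0.00166). All of these except Ms4a6d started in or near the dim range in UNSC, so each size given for them is a bound. Cadm4, an adhesion molecule, was at least 21-fold higher (adjusted p = 0.00123). Ccdc80, a matrix protein, stood at 9.58 and 9.56 in UNTD and at 5.24 and 2.47 in UNSC (adjusted p = 0.00279). Zfp36l1, which promotes mRNA decay, stood at 9.18 and 9.44 against 5.39 and 2.35 (adjusted p = 0.00281), with UNSC replicate 2 alone in the dim range for both. Klk1b11, a glandular kallikrein, rose from 6.25 and 6.23 in UNSC to 11.91 and 11.59 in UNTD (5.51 ± 0.65, adjusted p = 0.000343). Klk1b1 was at least 11.2-fold higher (adjusted p = 0.0155). The kallikreins of this cluster are near-identical, so which gene gave the signal is uncertain. Gpr34, a lysophosphatidylserine receptor of microglia and macrophages, was at least 7.63-fold higher (adjusted p = 0.0125), and Ptgfrn at least 6.03-fold by 1 of its 2 probe sets, Qpct at least 2.32-fold (adjusted p = 0.000108 and 0.0373). Calls that ended when an array was dropped were those of Klk1b1 (adjusted p up to 0.132, without UNSC replicate 1), Gpr34 (adjusted p up to 0.132, without UNTD replicate 2) and Qpct (adjusted p up to 0.236, without UNTD replicate 2).

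Among the largest decreases were a sodium pump chain, clusterin and several weakly expressed genes. Sectm1a, a small secreted and transmembrane protein, stood at 10.06 and 10.07 in UNSC and was dim in UNTD (4.70 and 4.34), at least 32.5-fold lower (adjusted p = 0.000202), and UNPD read 5.69 and 4.58. Atp1b1, a chain of the sodium pump, fell from 10.50 and 10.51 in UNSC to 6.49 and 5.64 in UNTD (-4.44 ± 0.50, adjusted p = 0.000252), in all 5 of its probe sets. Clu, clusterin, a secreted chaperone, fell from 10.07 and 10.08 in UNSC to 7.01 and 6.67 in UNTD (-3.23 ± 0.28, adjusted p = 4.38e-05), in all 4. Dock9, an activator of CDC42, fell from 9.83 and 9.76 in UNSC to 6.42 and 5.55 in UNTD (-3.81 ± 0.48, adjusted p = 0.000513), though 2 of its 5 probe sets had the other sign. Slc4a8, a bicarbonate transporter, fell from 9.72 and 9.33 in UNSC to 6.83 and 5.55 in UNTD (-3.34 ± 0.37, adjusted p = 0.000235). Pcbd1, a pterin dehydratase, fell from 9.25 and 9.07 in UNSC to 5.56 and 5.89 in UNTD (-3.44 ± 0.48, adjusted p = 0.00112). Igha, the immunoglobulin α constant region, fell from 10.95 and 10.96 in UNSC to 7.11 and 7.63 in UNTD (-3.59 ± 0.64, adjusted p = 0.00518). Atp8a2, which flips phospholipids across membranes, was at least 5.46-fold lower (7.69 and 7.29 in UNSC, 1.61 and 1.37 in UNTD, adjusted p = 8.49e-06), by 1 of 3 probe sets. Egfl6 was at least 10.8-fold, Ino80dos at least 5.15-fold and Snai3 at least 4.15-fold lower (adjusted p = 0.0122, 0.00553 and 0.0148). The others of the 20 largest decreases, Cnmd, Spag4, Ppm1e, Hormad2, Fmod, Pde1c, Sema5b and Tulp3, were weakly expressed in UNSC and dim on both UNTD arrays, with UNTD levels from 0.66 to 3.43. With the mean of probe sets in place of the brightest, Atp8a2 (adjusted p = 0.157), Slc4a8 (0.0559), Fmod (0.298) and Tulp3 were not called. Over the alternatives the difference of Tulp3 shrank to -0.21 at the least, with an adjusted p of up to 0.918. Dropping an array ended the call of Igha (adjusted p up to 0.0602, without UNTD replicate 1), Egfl6 (adjusted p up to 0.133, without UNSC replicate 1), Ino80dos (adjusted p up to 0.0852, without UNSC replicate 2), Snai3 (adjusted p up to 0.103, without UNSC replicate 1), Spag4 (adjusted p up to 0.274, without UNTD replicate 2), Ppm1e (adjusted p up to 0.2, without UNTD replicate 2), Hormad2 (adjusted p up to 0.0514, without UNSC replicate 1), Fmod (adjusted p up to 0.0877, without UNSC replicate 1), Pde1c (adjusted p up to 0.154, without UNSC replicate 2), Sema5b (adjusted p up to 0.13, without UNSC replicate 1) and Tulp3 (adjusted p up to 0.268, without UNSC replicate 1).

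Markers of other cell types were read to see what moved beside these groups. The tissue-resident macrophage list had 4 of 17 tested members higher (3 to 6 when 1 array was left out, and 7 with only the 4 arrays fitted) and 1 lower (0 to 2 when 1 array was left out, fewest without UNSC replicate 1 or UNTD replicate 2, most without RATD replicate 1 or RATD replicate 2), with a median of 1.18, and both UNTD arrays were above both UNSC arrays for 13. Over all genes both UNTD arrays were above both UNSC arrays for 27.7%, and 4.96% were called higher and 3.2% lower. At an unadjusted p under 0.05, 8 of the list were higher and 2 lower. Its summed signal was 50200 to 54800 on the UNTD arrays against 31500 to 31600 on the UNSC arrays. Hmox1, haem oxygenase, rose from 7.82 and 6.84 in UNSC to 9.67 and 9.93 in UNTD (2.47 ± 0.33, adjusted p = 0.000775). Axl, a receptor for dying cells, was at least 5.14-fold higher (adjusted p = 0.0121). The other members called higher were Maf and Csf1r, described above, and Maf had the largest difference of the list (5.27). Vcam1, an adhesion molecule of marrow macrophages and stroma, fell from 9.30 and 9.16 in UNSC to 7.08 and 6.24 in UNTD (-2.57 ± 0.47, adjusted p = 0.00573). The complement genes C1qa, C1qb and C1qc are defining genes of such macrophages, and they were singled out after their values were seen. C1qa stood at 2.26 and 1.91 on the UNSC arrays and 5.04 and 5.19 on the UNTD arrays, C1qb at 4.15 and 5.23 on the UNSC arrays and 2.89 and 5.90 on the UNTD arrays and C1qc at 0.72 and 0.88 on the UNSC arrays and 2.78 and 5.28 on the UNTD arrays. Cd5l was dim on all 4 arrays (3.16 and 3.09, 3.65 and 3.53). Adgre1, which encodes F4/80, read 10.52 and 10.55 on the UNSC arrays and 11.64 and 11.68 on the UNTD arrays and was not called (adjusted p = 0.124). The part of such macrophages in the differences was not tested. Dendritic cell markers had 2 of 15 higher, Flt3 and Itgax (2.16 ± 0.37, adjusted p = 0.00414), with a summed signal of 3210 to 3330 against 3170 to 3240. These 2 are 13.3% of that list, against 8.15% of all genes called in either direction. The calls that did not hold without a single array were those of Axl (adjusted p up to 0.101, without UNTD replicate 1), Vcam1 (adjusted p up to 0.0756, without UNTD replicate 2) and Itgax (adjusted p up to 0.0621, without UNSC replicate 2).

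Several basophil and early B cell genes fell. Mcpt8, a basophil protease, fell from 11.55 and 11.61 in UNSC to 9.73 and 9.22 in UNTD (-2.10 ± 0.26, adjusted p = 0.00047). Hdc, which makes histamine, fell from 8.44 and 8.14 in UNSC to 6.33 and 6.10 in UNTD (-2.08 ± 0.31, adjusted p = 0.00185) and Siglecf fell by 1.23 ± 0.27 (adjusted p = 0.0171). The list of eosinophils, basophils and mast cells had 3 of 14 members lower (21.4%, against 3.2% of all genes) and 0 (0 at an unadjusted p under 0.05) higher, with a median of -0.18. Its summed signal was 1470 to 1920 in UNTD against 4610 to 4770 in UNSC, a linear sum in which Mcpt8 weighed most in UNSC. Vpreb1 and Igll1, the surrogate light chains of pre-B cells, fell from 9.90 and 9.75 in UNSC to 6.77 and 7.21 in UNTD and from 12.08 and 12.11 in UNSC to 10.31 and 9.78 in UNTD (-2.84 ± 0.26, adjusted p = 6.58e-05 and -2.05 ± 0.21, adjusted p = 0.000152). With the mean of probe sets Igll1 was not called (adjusted p = 0.0505). The B cell factor Pax5 was near the dim level (5.17 and 5.65 on the UNSC arrays and 3.85 and 3.27 on the UNTD arrays) and Ms4a1, which encodes CD20, at 5.01 and 4.03 on the UNSC arrays and 5.17 and 3.48 on the UNTD arrays, both not called. Of 12 tested B cell markers 2 rose and 2 fell (33.3% called, against 8.15% of all genes), with a median of -0.24. The summed signal of the list was 1740 to 2090 against 5730 to 5770, a linear sum in which Igll1 weighed most. Cd22 and Fcrla rose, Cd22 from 5.21 and 5.26 in UNSC to 7.33 and 7.50 in UNTD (2.18 ± 0.38, adjusted p = 0.00405) and Fcrla from dim in UNSC by at least 4.48-fold (adjusted p = 0.00418). An array left out ended the call of Siglecf (adjusted p up to 0.143, without UNSC replicate 2), Cd22 (adjusted p up to 0.0529, without UNTD replicate 2) and Fcrla (adjusted p up to 0.0586, without UNTD replicate 2).

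T and NK cell markers stayed low, with a summed signal of 918 to 1470 against 850 to 892 and Il7r the 1 of 13 called (2.06 ± 0.44, adjusted p = 0.0144). With the mean of probe sets Il7r was not called. Erythroid markers had 1 of 13 called, Blvrb (1.04 ± 0.21, adjusted p = 0.0102), with haemoglobin Hba-a2 at 5.06 and 5.98 on the UNSC arrays and 6.65 and 6.85 on the UNTD arrays. Megakaryocyte and platelet markers had 0 of 16 called by limma (4 higher and 0 lower at an unadjusted p under 0.05, and 3 higher and 0 lower with only the 4 arrays fitted), a median of 0.71 and a summed signal of 5760 to 6020 against 3220 to 3430. Of 16 stroma and endothelium markers Acta2, smooth muscle actin, was the 1 called (from 12.24 and 12.14 in UNSC to 13.81 and 13.94 in UNTD, 1.69 ± 0.21, adjusted p = 0.000461), while the collagen genes Col1a1 and Col1a2 and Cxcl12 read at most 5.79 on any of the 4 arrays. The T and NK, erythroid and stroma lists had 7.69%, 7.69% and 6.25% of members called, against 8.15% of all tested genes. The part of these cells in the differences was not tested. Leaving out 1 array ended the call of Il7r (adjusted p up to 0.135, without UNTD replicate 1) and Blvrb (adjusted p up to 0.122, without UNSC replicate 1).

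**Figure D4:**
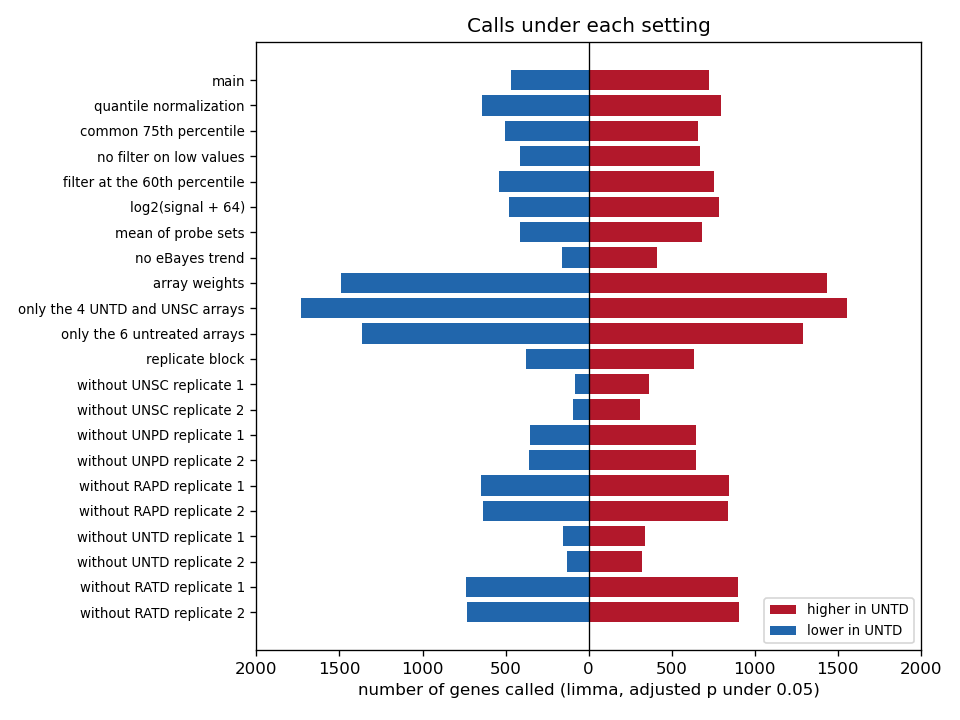
Number of genes called higher (red, to the right) and lower (blue, to the left) in UNTD under the main setting and each of the 21 alternatives. The counts are smallest when a UNSC or UNTD array is left out and largest, with 3291 genes, when only these 4 arrays are fitted.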

How the data were processed

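Total RNA of sorted cells was hybridised to single-colour mouse expression arrays, 1 per sample. The authors deposited one value table of 45037 probe sets by 10 arrays, in log2 units of signal, and the submitters' processing notes name MAS5. No step between scan and table other than this is given in the sources used here, and the log2 scale was read from the values. No further normalization was applied in the comparison as given. Probe sets that exceeded the 40th percentile of the array on 2 or more of the 10 arrays were kept (32686 were), and each gene with 1 symbol was represented by its brightest kept probe set. Such a filter keeps genes that are high in any group. Signals of single-colour arrays carry no counts, so the number of arrays limits the precision.

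Groups came from the sample titles. limma 3.58.1 in R 4.3.3 (lmFit and eBayes, its prior variance following the intensity) fitted 5 group means on all 10 arrays, and UNTD minus UNSC was tested with Benjamini-Hochberg adjustment over 14581 genes. On simulated data with 200 changed genes the fit recovered 35.8% of 2-fold, 73.1% of 4-fold and 80.3% of 8-fold changes, with 8.03% false calls. The simulation gave all groups the same spread for a gene, while the replicate SD of these groups ran from 0.158 to 0.503. Its shares therefore need not hold for this comparison. Replicate numbers were checked for pairing: deviations of same-numbered arrays correlated at 0.023, so the numbers were not used as a block.

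The comparison and the 39 gene lists (1146 symbols) were chosen with earlier results of these data known. Genes were named as the 20 largest called differences each way with no overlap of arrays, the 5 smallest p-values of each list, and a set of anchor genes. C1qa, C1qb, C1qc, Cd5l, Adgre1, Ms4a1 and the promoters shown fell outside this rule and were chosen after their values were seen. Promoters came from a RefSeq table (GRCm38.p6), in which 11647 of the tested genes were matched by gene identifier. They were searched for 8 motifs, of which 3 are described. The alternatives were other normalizations, filters, offsets, probe set rules, priors, array weights and sets of arrays.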

Additional observations from a re-analysis of the deposited data

How the results depend on the processing

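All 191 called genes named by the rule kept their direction in all 21 alternatives, and 104 of them stayed called in each. In many of these alternatives the direction could not change, as described above. With the mean of probe sets, 1179 of all 1189 called genes kept their sign. The number of calls, 1189 with 723 higher and 466 lower, moved more. It was 571 (412 higher, 159 lower) without the intensity trend, 2924 (1434 and 1490) with array weights, 3291 (1559 and 1732) with only the 4 UNTD and UNSC arrays, and 2652 (1290 and 1362) with only the 6 untreated arrays. Leaving out 1 array gave 398 to 1641 calls, 307 to 907 higher and 80 to 736 lower. With the replicate block 1014 were called, and as the same-numbered arrays share only a number this was not used. Scaling mattered less: 1438 genes were called after quantile normalization and 1167 after alignment of the 75th percentiles, with 55.6% and 56.6% of them higher against 60.8%. No filter, a stricter filter, an added offset and the mean of probe sets gave between 1082 and 1293 calls. The array weights were 2.024 in UNSC, 1.304 in UNTD, 1.107 in UNPD, 0.607 in RATD and 0.564 in RAPD. They were lowest in the ATRA-treated groups, which also had the largest replicate SD in the pooled fit. The cause of these shifts was not tested. Genes near the dim level have poorly measured sizes, and nothing here gives a detection limit per probe set.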

Other observations

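Some genes called higher in UNTD were next to each other in the genome, in runs noticed after their values were seen and not tested against chance. One run joined the chemokine genes Ccl9, Ccl6, Ccl3 and Ccl4 with Wfdc17 and Wfdc18, and the smallest difference among them was 1.41. A second held Aif1, Lst1, Ltb and Tnf, small genes of inflammation inside the MHC region, with a smallest difference of 1.44. The receptors Cd300a, Cd300lb, Cd300ld and Cd300c2 differed by 1.69 to 2.06. Ninj1, Card19, Susd3 and Fgd3, which are not copies of one gene, differed by 1.06 to 2.55 and formed a further run. Further runs held Fcrla, Fcgr2b, Fcgr4 and Fcgr3 (smallest difference 0.85), Ms4a7, Ms4a4c, Ms4a6c, Ms4a6b and Ms4a6d (3.21), and C3ar1, Necap1, Clec4a3, Clec4b1, Clec4a2 and Clec4n (0.95). Among the Ms4a genes, the Clec4 genes and the kallikreins Klk1b1, Klk1b11, Klk1b21 and Klk1b27 close copies may share signal, so the genes of such a run are not separate measurements.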
